A study of Mus musculus with 2 samples.

Results

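The genes described here encode ion channels of the potassium, sodium, chloride and calcium families, namely the genes whose array names begin with Kcn, Scn and a number, Clcn or Cacn, with Cacna1s, the muscle L-type calcium channel, left out. There were 143 such genes, with 220 probes, of 35018 gene names on the array. They were taken by name alone and not by their values. The mice were male, of strain CD2F1/Slc and 11 weeks old, and RNA of their skeletal muscle was read on 2 arrays in 1 colour. The C26 array held muscle of mice given 1000000 colon 26 (C26) carcinoma cells under the skin in 100 µL of PBS, a model of cancer cachexia, and the control array held muscle after an equal injection of PBS. The labels name neither the muscle taken nor the time the tumours grew, nor whether RNA of several mice was pooled. The slide and the scan time were the same for both arrays (1 slide).

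Channels set the electrical behaviour of a muscle fibre. Sodium channels carry the upstroke of the action potential, potassium channels repolarise the membrane and hold the resting potential, and the large resting chloride conductance of muscle damps unwanted firing. Voltage-gated calcium channels are built from a pore subunit with alpha2delta, beta and, in muscle, gamma subunits, and they link the action potential to calcium release. Many genes of these families act mainly in nerve, heart, vessels or epithelia.

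With 1 array per group there was no spread between animals to test against, so no test was run and genes are counted by size, at least 2-fold. A signal below is the brightness of a gene's brightest probe after both arrays were brought to a common 75th percentile, in arbitrary units that do not compare one gene with another. A log2 ratio is C26 over control, with an error that the scanner software attaches to each spot and that covers spot measurement alone. A gene is called measured where that probe stood well above background on both arrays.

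Of the 143 channel genes, 76 were measured, or 53.1%, against 56.4% of all gene names. Another 6 stood above background on the C26 array alone (4.20% of all gene names did), 2 on the control array alone (1.03% of all gene names) and 59 on neither. Among the measured channel genes, 3 were at least 2-fold higher in C26 (Kcnf1, Kcnq1 and Scn2b) and 2 at least 2-fold lower (Kcng4 and Kcnh2). Among all 19767 measured genes the shares past 2-fold were 1.24% for higher and 1.16% for lower. With the arrays scaled to their medians, or to the 75th percentile of probes above background, the counts were 1 higher and 2 lower, with Kcnq1 and Scn2b (0.96 to 0.99) just below the threshold.

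The rest of the channel genes lay close to a ratio of 1. The median log2 ratio of the 76 was -0.05, with quartiles of -0.18 and 0.21, beside a median of 0.04 and quartiles of -0.15 and 0.22 over all measured genes. Log2 ratios were above 0 for 34 channel genes, or 44.7%, against 56.4% of all measured genes. Of the 76, 68 lay within 1.5-fold and 45 had a ratio no larger than their scanner error, whose median was 0.21. No count against scanner error was made over all measured genes, so the 45 show nothing particular to channels. At 1.5-fold, 3 were higher and 5 lower, where 4.36% of all measured genes were higher and 4.82% lower.

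**Figure D1:**
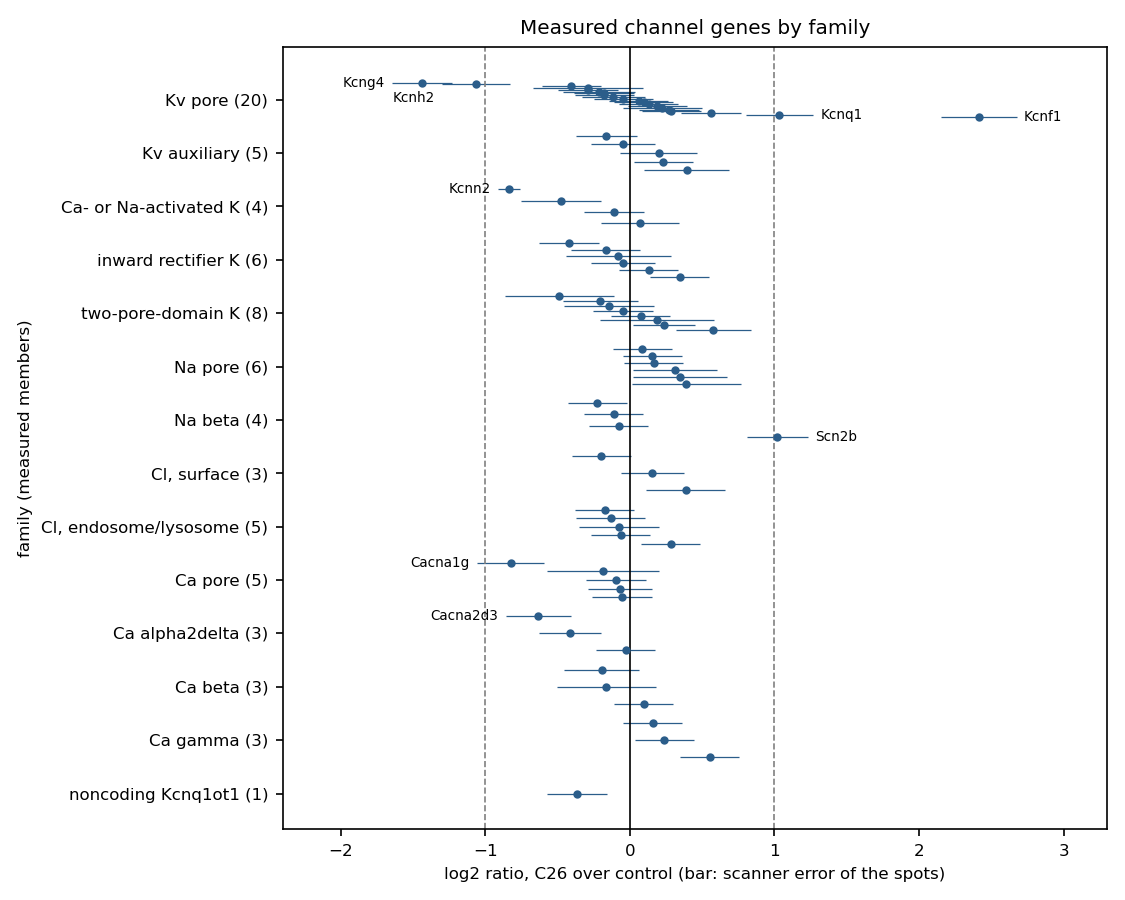
Log2 ratio (x axis, C26 over control) of each measured channel gene, by family (y axis, with the number measured). Points are genes, bars the scanner error of the spots, and dashed lines 2-fold; the 8 genes past 1.5-fold are named, and Kcnf1 lies farthest out at 2.41.

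Because the findings rest on single probes of 60 bases, the first 30 bases of each probe of the 5 genes past 2-fold, and of Cacna1g, are shown 5′ to 3′ as the files give them. Positions are those of the whole probe on mm9, the build of the files, and exon annotation of that build was not used here. Capitals mark bases shared by 2 probes of one gene.
Kcnf1, brightest probe, chr12:17179527-17179586, minus strand: atactcagagatccaaagtatctttttgct
Kcnf1, second probe, chr12:17181507-17181566, minus strand: ttcattcccctgctgacagaggagaagcat
Kcnq1, brightest probe, chr7:150612887-150612946, plus strand: aatttcgtaGTATGATCTTGATTGAGAGAC
Kcnq1, second probe, chr7:150612896-150612955, plus strand: GTATGATCTTGATTGAGAGACTTTTCCAAA
Scn2b, chr9:44937945-44938004, plus strand: gttctttatgctttttaggggagaacccag
Kcng4, chr8:122148827-122148886, minus strand: gccagctggactctgggtggacattcctag
Kcnh2, chr5:23825407-23825466, minus strand: tgatgactatgaataataaataattatcct
Cacna1g, brightest probe, chr11:94270459-94270518, minus strand: aagaaagatgcgctgagtctctctggtttg
Cacna1g, second probe, chr11:94269863-94269922, minus strand: catcttcaacggaaagcgagaaccattttg
The Kcnf1 probes lie apart, whereas those of Kcnq1 overlap by 51 bases and so read nearly the same stretch.

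Voltage-gated potassium channel pore subunits held 4 of the 5 genes past 2-fold. Of 40 such genes 20 were measured, 10 above 0 and 10 below, with a median of 0.01. Kcnf1 encodes Kv5.1, a subunit that forms no channel alone and modifies the channels of other pore subunits. Its signal was 182 in C26 muscle, against 34.2 in control muscle, a log2 ratio of 2.41 (error 0.26), or 5.33-fold higher. The second Kcnf1 probe read 74.1 in C26 muscle and 38.2 in control muscle, a ratio of 0.96 (error 0.27), so both probes were higher in C26 while their sizes differed. The normexp correction, another way to take off background, shrinks the ratios of dim genes through its offset, and under it Kcnf1 stood at 1.39. A filter that asked for at least 50 units on both arrays left out Kcnf1, and Kcnh2 as well.

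Other silent subunits went different ways. Kcng4 (Kv6.4) had a signal of 173 in C26 muscle and 468 in control muscle, a log2 ratio of -1.44 (error 0.21), or 2.71-fold lower in C26. It was the lowest measured channel gene, and it stayed past 2-fold under every other scaling and filter tried. Kcng4 rests on 1 probe with 1 spot per array, so the mean over probes could not change its ratio. Kcns3 (Kv9.3) was above background on the C26 array alone, at 21.3, and at least 1.18-fold higher there. The control array's own Kcns3 reading of 17.8 was just under its lowest signal above background, 18.1.

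Kcnh2 encodes the ERG potassium channel Kv11.1, which repolarises the heart and has been studied in mouse muscle for a part in atrophy. Its signal was 45.8 in C26 muscle, against 95.8 in control muscle, a log2 ratio of -1.06 (error 0.23), or 2.09-fold lower. It rests on 1 probe, and under normexp correction its ratio was -0.55. Kcnq1 (Kv7.1), a repolarising channel of heart and epithelia, read 111 in C26 muscle and 54.1 in control muscle, a ratio of 1.03 (error 0.23). Its overlapping second probe read 82.0 in C26 muscle and 54.7 in control muscle, a ratio of 0.59 (error 0.25), and the mean of both was 0.81, below 2-fold. Under normexp correction the Kcnq1 ratio was 0.56.

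The gap of 0.45 between the Kcnq1 probes can be set beside other pairs of overlapping probes. Across the array, 66 pairs of measured probes for 1 gene overlapped by at least 30 bases and had a dimmer probe under 200 units. The median gap between their ratios was 0.18, and 1 in 10 of the pairs differed by more than 0.68. For the 218 pairs at 200 units or more the median gap was 0.04 and the 90th percentile 0.13. Of the probes shown above, those of Kcnf1, Kcnq1, Kcnh2, Cacna1g and Scn2b had a mean signal under 200 units.

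The noncoding RNA Kcnq1ot1, transcribed within the Kcnq1 gene and known for silencing neighbouring genes on the paternal copy, was not higher with Kcnq1. It read 179 in C26 muscle and 231 in control muscle, and its 2 probes gave log2 ratios of -0.37 and -0.30.

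The potassium channels best known from muscle fibres were measured at close to equal levels. Kcna7 (Kv1.7), a shaker channel of muscle and heart, read 8984 in C26 muscle and 10147 in control muscle, a log2 ratio of -0.18 (error 0.20). The Kv3 channel genes Kcnc1 (Kv3.1) and Kcnc4 (Kv3.4) stood at -0.04 and 0.06, each with an error of 0.20. Kcna4 (Kv1.4), an inactivating channel, had 0.10, and its partner Kcnab1 (Kv beta 1) 0.23, both with an error of 0.20. Kcne3, which accompanies Kv3.4 in muscle, stood at 0.20 (error 0.27), and Kcna1 (Kv1.1), also of myelinated nerve, at -0.29 (error 0.21). These ratios are of the size of their errors, and the sign of Kcnc4 turned under loess, quantile normalization and the deposited table, as that of Kcna4 did under loess.

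Kcnq5, a subunit of M-type potassium channels, read 319 in C26 muscle and 265 in control muscle, a log2 ratio of 0.27 (error 0.21). One of 3 Kcnc1 probes, listed under another transcript, gave -0.51 where the others gave -0.04 and 0.01. That probe read 198 in C26 muscle and 282 in control muscle. Of the 12 auxiliary subunit genes 5 were measured, all between -0.16 (Kcnip3) and 0.39 (Kcne4), and Kcne1l stood at -0.04.

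Calcium-activated potassium channels shape the pauses between action potentials. Kcnn2 (SK2), a small-conductance member, was read by 10 copies of its probe per array. The copies read 39.4 to 57.5 (median 47.8) in C26 muscle, against 74.9 to 96.2 (median 86.1) in control muscle. Its log2 ratio was -0.84 (error 0.08), or 1.78-fold lower in C26. The copies are spots of 1 RNA sample per group and say nothing of the spread between animals, and under normexp correction the ratio was -0.42.

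Other SK genes differed from Kcnn2. Kcnn3 (SK3), known to be switched on in denervated rodent muscle, read 42.4 in C26 muscle and 40.4 in control muscle, a ratio of 0.07 (error 0.27). Kcnn1 (SK1) stood above background on the C26 array alone, at 51.5, against a control reading of 4.55, and was at least 2.85-fold higher. Kcnn1 was the 1 channel gene of 6 with a bound past 2-fold on the C26 side, where 7.00% of all genes above background on that array alone passed. Kcnn4, the channel of red cells and lymphocytes, read 21.8 in C26 muscle and 20.7 in control muscle, a bound of at least 1.05-fold.

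Kcnma1 (BK), the large-conductance channel of smooth muscle and nerve, gave negative ratios with each of its 3 probes, from -0.37 to -0.11. Its vascular partner Kcnmb1 was above background on neither array. Kcnmb3 and Kcnu1, above background on the C26 array alone, had bounds of at least 1.58-fold and 1.33-fold, and Kcnmb4 stood at -0.48 (error 0.28). Of the 12 genes grouped as calcium- or sodium-activated potassium channels and their beta subunits 4 were measured, with a median of -0.29.

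Inward rectifiers hold the resting potential, and 6 of their 15 genes were measured. Kcnj2 (Kir2.1) read 90.0 in C26 muscle and 93.2 in control muscle, a log2 ratio of -0.05 (error 0.22), and Kcnj12 (Kir2.2) stood at 0.13 (error 0.20). Kcnj11 (Kir6.2), the pore of the ATP-sensitive channel of muscle, read 1957 in C26 muscle, against 1540 in control muscle. Its 2 probes gave 0.35 and 0.40, and the receptors that complete this channel, Abcc8 and Abcc9, had 0.33 and 0.26 (error 0.20 each). All of these are under 1.5-fold.

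Kcnj8 (Kir6.1), the ATP-sensitive pore of vessels and pericytes, was the lowest inward rectifier, at 175 in C26 muscle and 234 in control muscle, a ratio of -0.42 (error 0.21). All 10 markers of smooth muscle and pericytes were measured, 5 above 0 and 5 below, from -0.64 (Cspg4) to 0.36 (Des), and their summed signal was 66318 in C26 muscle and 57007 in control muscle. Des, also a gene of the fibre, made up 30080 of that sum in C26 muscle and 23458 in control muscle. Beside Des, Abcc9, Tagln, Myh11 and Acta2 were above 0, at 0.26, 0.25, 0.10 and 0.10. The 5 below 0 were Cspg4, Cnn1, Pdgfrb, Rgs5 and Notch3, at -0.64, -0.29, -0.11, -0.08 and -0.06. The part of vessel cells in the Kcnj8 value was not tested, and in whole muscle fewer cells of a type and less RNA per cell cannot be told apart.

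Two-pore-domain channels carry background potassium current, and 8 of their 14 genes were measured, 4 above 0 and 4 below. They ran from Kcnk5 (TASK-2) at -0.49 (error 0.37) to Kcnk1 (TWIK-1) at 0.58 (error 0.26). Kcnk5 read 17.7 in C26 muscle and 24.8 in control muscle, close to background, and stood at -0.09 under normexp correction. Kcnk6 (TWIK-2), Kcnk4 (TRAAK) and Kcnk13 (THIK-1) had -0.05, 0.07 and 0.24, with errors of 0.21. None of the 8 reached 1.5-fold.

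**Figure D2:**
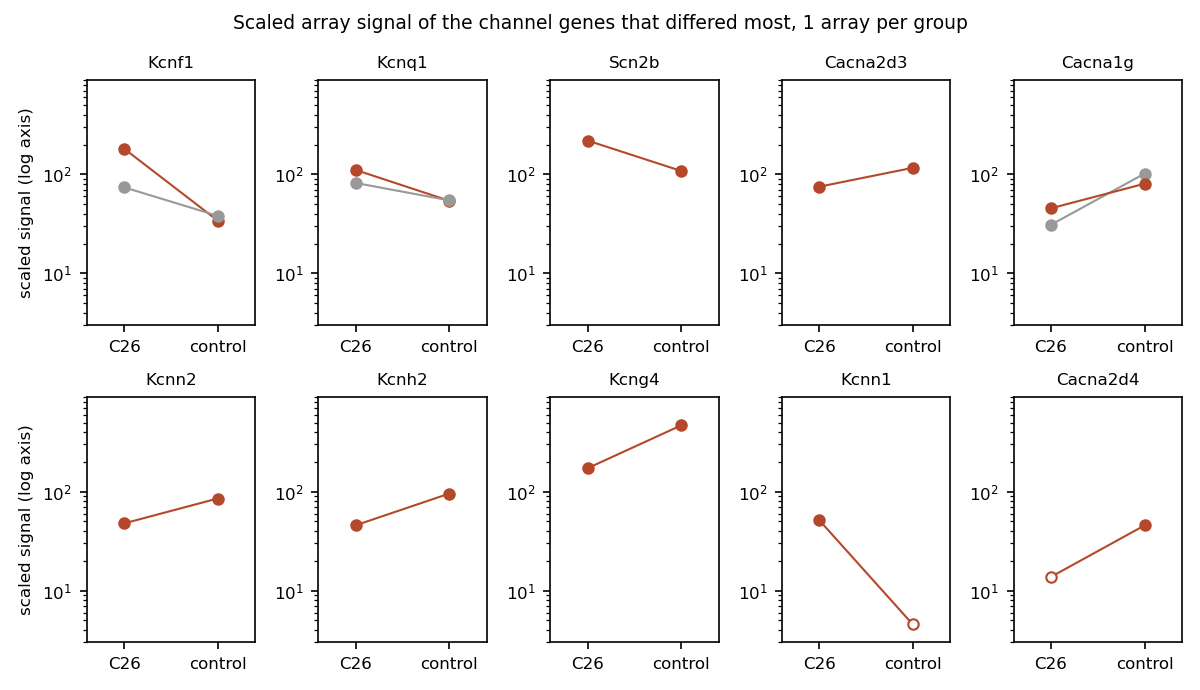
Scaled signal (y axis, log scale, arbitrary units) on the C26 and the control array, 1 array each, for the 8 channel genes past 1.5-fold and the 2 with a bound past 2-fold (Kcnn1, Cacna2d4). Coloured points are the probe used, grey points a second probe, open points readings not well above background; Kcnf1 reads 182 in C26 and 34.2 in control.

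The measured sodium channel pore subunits had ratios above 0, by amounts under 1.5-fold. Of 10 genes 6 were measured and all 6 lay above 0, as did 56.4% of all measured genes. Their ratios ran from 0.09 to 0.39 with a median of 0.24, and all 6 stayed above 0 under every other scaling. With no filter on dim probes 8 of the 10 genes were above 0 and 2 below. With the mean over probes Scn2a1 (now Scn2a) went to -0.18, since its measured probes gave 0.35 and -0.71. Scn4a (Nav1.4), the channel of the adult fibre, read 925 in C26 muscle and 871 in control muscle, a log2 ratio of 0.09 (error 0.20).

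Scn8a (Nav1.6), of the nodes of nerve fibres, stood at 0.17 (error 0.20). Scn3a, Scn2a1 and Scn7a, at 0.31, 0.35 and 0.39, were dim, with signals of at most 43.1 in C26 muscle and at most 34.7 in control muscle and errors of 0.29 to 0.38. Scn1a was above background on the C26 array alone, at least 1.13-fold higher.

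The sodium channel beta subunits, which fix the pore in the membrane and tune its gating, were all measured. Scn2b read 220.0 in C26 muscle, against 109 in control muscle, a log2 ratio of 1.02 (error 0.21), or 2.03-fold higher. Others differed by small amounts. Scn4b read 21767 in C26 muscle and 23493 in control muscle, a ratio of -0.11, and Scn3b had -0.08, each with an error of 0.20. Scn2b rests on 1 probe with 1 spot per array, and its ratio lay between 0.68 and 1.03 over the alternatives.

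Chloride channels differed little. Clcn1 (ClC-1), which carries the resting chloride conductance of the fibre and is lost in myotonia, read 848 in C26 muscle and 974 in control muscle, a log2 ratio of -0.20 (error 0.20). Clcn2 stood at 0.15 (error 0.22), and its second probe at 0.17.

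All 5 chloride-proton exchangers of endosomes and lysosomes were measured, 1 above 0 and 4 below. Clcn7, the lysosomal exchanger, read 324 in C26 muscle and 266 in control muscle, a ratio of 0.28 (error 0.21), while its partner Ostm1 stood at -0.10 (error 0.20). Clcn3 had -0.06 and Clcn4-2 (now Clcn4) -0.17, each with an error of 0.20. The lowest of the 5 was Clcn4-2, so the whole group lay within 1.5-fold.

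Of the 9 calcium channel pore subunit genes other than the one left out, 5 were measured. All 5 had ratios below 0, where 56.4% of all measured genes lay above 0. With the mean over probes 3 of the 5 were below 0. Cacna1g (Cav3.1), a T-type channel opened by small depolarisations, read 45.5 in C26 muscle and 80.6 in control muscle, a log2 ratio of -0.83 (error 0.23), or 1.77-fold lower. Its second probe read 31.0 in C26 muscle and 102 in control muscle, a ratio of -1.71 (error 0.27), and the mean of both, -1.27, was past 2-fold. Both probes were thus lower in C26, and under normexp correction the brightest stood at -0.44.

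The other pore subunits measured were near a ratio of 1. Cacna1h (Cav3.2), the T-type channel of developing muscle, stood at -0.07 (error 0.22), Cacna1i (Cav3.3) at -0.05 (error 0.20) and Cacna1a (Cav2.1), of motor nerve endings, at -0.10 (error 0.21). With the mean over probes Cacna1h and Cacna1i went to 0.15 and 0.16, because their second probes gave 0.37 each. Cacna1s, the muscle pore itself, read 108815 in C26 muscle and 112154 in control muscle, a ratio of -0.04 (error 0.20).

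The subunits that build the muscle calcium channel with Cacna1s showed no 2-fold difference. Cacng1, its gamma subunit, read 10818 in C26 muscle, against 7376 in control muscle, a log2 ratio of 0.55 (error 0.20), just under 1.5-fold. Cacnb1, its beta subunit, stood at 0.10 (error 0.20), or just below 0 under loess, and Cacna2d1, its alpha2delta subunit, at -0.03 (error 0.20), with 0.14 from a second probe. Cacng6 and Cacng7 had 0.24 and 0.16. All 3 measured gamma subunits thus lay above 0, as did 56.4% of all measured genes. These 3 stayed above 0 under each alternative that kept the filter on dim probes.

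The other alpha2delta genes, known mainly from nerve and retina, had lower readings in C26. Cacna2d3 read 75.2 in C26 muscle and 117 in control muscle, a ratio of -0.63 (error 0.22), or 1.55-fold lower, and Cacna2d2 read 106 in C26 muscle and 140 in control muscle, a ratio of -0.41 (error 0.21). Cacna2d4 was above background on the control array alone, at 45.7, against a C26 reading of 13.8, and was at least 3.16-fold lower in C26. It and Kcna10, at least 1.55-fold lower, were the 2 channel genes of that kind; over all genes above background on the control array alone, 45.0% had a bound past 2-fold. Cacnb3 and Cacnb4, beta subunits of nerve, had -0.19 and -0.16 with errors of 0.26 and 0.34.

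**Figure D3:**
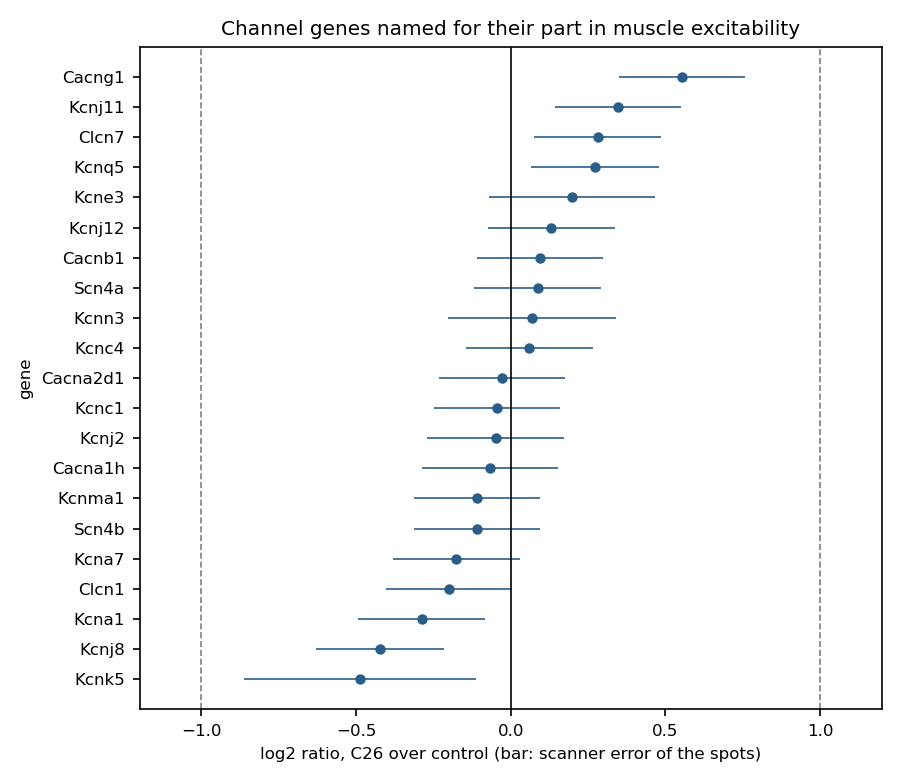
Log2 ratio (x axis, C26 over control) of 21 of the 24 measured genes among 27 chosen by name for their part in muscle excitability (y axis), with the scanner error as bars and 2-fold as dashed lines. These 21 lie inside 1.5-fold, from Kcnk5 at -0.49 to Cacng1 at 0.55.

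Of 27 genes chosen by name for muscle excitability 24 were measured, 12 above 0 and 12 below, with a median log2 ratio of 0.02. These 27 were chosen with earlier results of these data known, so the list gives no independent support. None of the 24 was 1.5-fold different, where 4.36% of all measured genes were higher and 4.82% lower by that much. For 16 of the 24 the ratio was within the scanner error, a share not counted over all genes. Of the other 3, Kcnn1 and Kcnn4 were above background on the C26 array alone, with the bounds of at least 2.85-fold and 1.05-fold given above, and Kcnmb1 on neither. Genes whose products work with the channels were looked at too. Of 46 partner genes 41 were measured, 24 above 0 and 17 below, with a median of 0.08 and none past 2-fold. Fxyd5, a regulator of the sodium pump, stood at 0.48 (error 0.20). Among acetylcholine receptor subunits the fetal Chrng had -0.67 (error 0.31), Chrne -0.23 and Chrna1 0.46. Fgf14, a sodium channel regulator, had the highest partner ratio, 0.71 (error 0.30), and Ryr1, the calcium release channel, stood at 0.29 (error 0.20).

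Where a gene had several probes, their spread was often as large as the ratio. Several probes were measured for 26 channel genes, and they had 1 sign in 18 of these genes and both signs in 8. For 2 of the 8, Kcnc1 and Scn2a1, probes of opposite sign lay at least 0.5 apart. Kcnf1, Kcnq1 and Cacna1g had 1 sign over their probes.

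**Figure D4:**
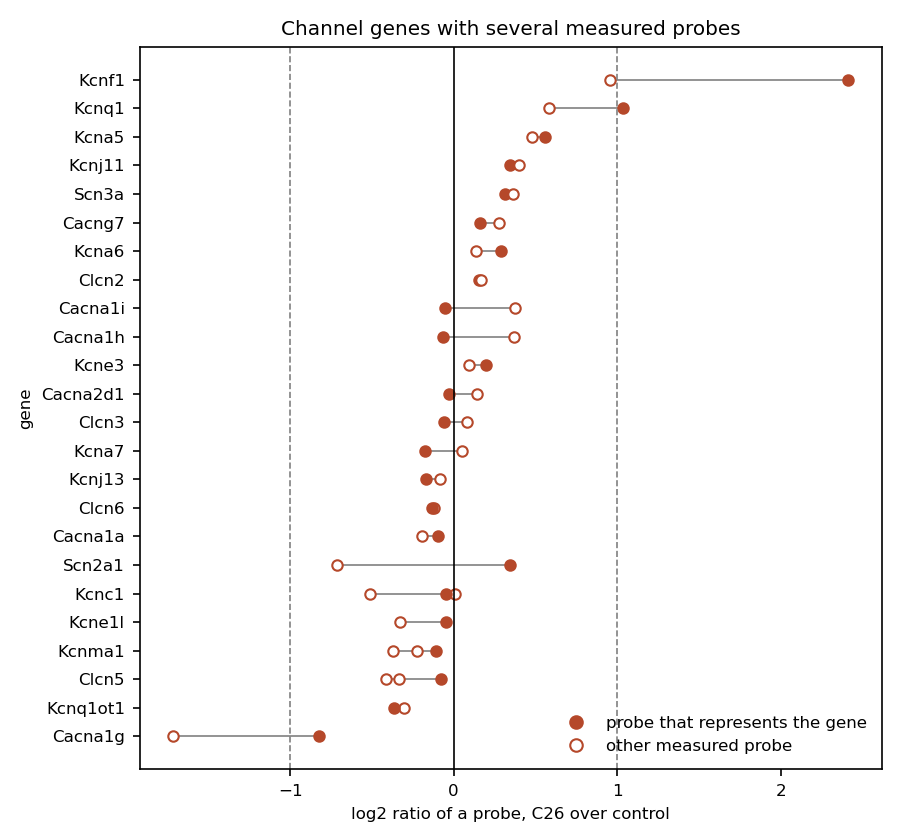
Log2 ratio (x axis, C26 over control) of every measured probe of 24 of the 26 channel genes that had several (y axis, ordered by mean). Filled points are the probe that represents the gene, open points the others, dashed lines 2-fold; the 2 Kcnf1 probes lie at 2.41 and 0.96 and the 2 Cacna1g probes at -0.83 and -1.71.

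The tissue label was checked against 10 fibre markers, all of them measured, with log2 ratios between -0.32 and 0.29. Markers of other cells differed between the arrays. All 8 fibroblast markers were lower in C26, by a median of -0.75 (summed signal 104070 in C26 muscle and 157146 in control muscle), as were all 8 macrophage markers, by -0.28 (10742 in C26 muscle and 13405 in control muscle). The 3 measured erythroid markers were higher, at a median of 2.31, with Epb42 above background on neither array. All 8 endothelial markers lay above 0 (at least 5 of the 8 did with another scaling or background correction). Their ratios ran unevenly from 0.01 to 1.30, with a median of 0.28 and 1 past 2-fold. The summed endothelial signals were 15329 in C26 muscle and 11939 in control muscle. Of 9 Schwann cell markers 8 were measured, 3 above 0 and 5 below, from -0.52 to 0.36. Cdh19 was above background on the C26 array alone, at 36.2 against a control reading of 13.5, and at least 2.01-fold higher. Of 8 neuronal markers Snap25 and Elavl4 were measured, at -0.23 and -0.06, Nefh and Syn1 were above background on the control array alone and Rbfox3 on the C26 array alone, and Tubb3, Nefl and Nefm on neither. Of 8 epithelial and carcinoma markers Krt18, Krt19 and Cdh1 were measured, at 0.11, -0.84 and -0.02, and Epcam, Krt8, Krt20, Vil1 and Cdx2 were above background on neither array. The part of these cells in the ratios of Kcnf1, Kcnq1, Kcng4, Kcnh2, Scn2b, Kcnn2, Kcnn1, Kcnn4 and the alpha2delta genes was not tested.

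Promoter windows, from 250 bases before to 50 after the transcription start, were matched for 106 of the 143 genes in RefSeq's table (GRCm38.p6). They were searched on both strands for GTAAACA (the FoxO core), the glucocorticoid response element, CACGTG (the clock E-box), CAGCTG (a myogenic E-box), TTCNNNGAA (a STAT palindrome) and TGACGTCA (a cAMP response element). Of the 8 genes past 1.5-fold, windows for 5 were in the table (Kcnf1, Scn2b, Kcng4, Kcnh2 and Cacna2d3). A myogenic E-box was in those of Kcng4 and Cacna2d3, against 28.3% of the channel gene windows and 18.3% of all genes with a window, and a STAT palindrome in that of Scn2b, against 13.2% and 9.55%. The FoxO core was in no channel gene window and in 4.05% of all, and the glucocorticoid element in none and in 0.0518%. The clock E-box was in 8.49% of the channel gene windows and 8.09% of all, and the cAMP element in 1.89% and 2.03%. The windows of Scn2b, the highest beta subunit, and of Kcng4, the lowest channel gene, are shown with the match in capitals.
Scn2b, chr9:45117626-45117925, plus strand, GRCm38.p6: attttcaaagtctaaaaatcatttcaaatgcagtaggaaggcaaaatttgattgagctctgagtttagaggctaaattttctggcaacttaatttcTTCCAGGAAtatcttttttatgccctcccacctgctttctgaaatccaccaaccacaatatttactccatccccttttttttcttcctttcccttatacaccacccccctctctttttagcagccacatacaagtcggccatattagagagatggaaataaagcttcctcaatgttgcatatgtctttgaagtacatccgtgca
Kcng4, chr8:119635631-119635930, minus strand, GRCm38.p6: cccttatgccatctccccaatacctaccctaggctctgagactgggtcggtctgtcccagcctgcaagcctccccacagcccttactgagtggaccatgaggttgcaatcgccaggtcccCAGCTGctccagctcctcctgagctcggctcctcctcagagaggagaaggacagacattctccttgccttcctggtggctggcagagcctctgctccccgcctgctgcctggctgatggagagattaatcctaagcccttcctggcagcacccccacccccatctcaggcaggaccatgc
These matches describe letters in a window and not a bound site.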

How the data were processed

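Per the labels, total RNA was labelled with Cy3 for 1 array per group. Per the file headers, the deposited values are spot intensities read by Agilent Feature Extraction 10.7.1.1 on design Agilent-028005 (mm9), corrected for background by spatial detrending and detrended again by a multiplicative fit, with a surrogate for spots too low. The submitters' processing notes list version 9.5.1.1. A deposited table of intensities, with no record of its making in the labels, had 99.9% of its values within 0.01 (log2) of the quantile-normalized signal and a median of 19.75 in both columns. It served as an alternative.

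Control spots and outlier spots (91 on the C26 array, 110 on the control array, 6 of them channel spots) were left out, no spot was saturated, and the log2 signals of a probe's spots were averaged. Each array was scaled to the 75th percentile of its probes. Surrogates stood for 23.8% of channel spots on the C26 array and 30.9% on the control array, and 53.8% and 50.4% of all non-control spots were well above background. A gene took its brightest probe. Of 55681 probes 27235 were named through RefSeq accessions, among them 197 of the 220 channel probes. The channel genes keep the name in the file. For a gene above background on 1 array, the bound used the higher of the dim reading and the dim array's lowest signal above background (14.5 for C26, 18.1 for control).

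Named genes are 27 chosen for muscle excitability, those past 1.5-fold (at most 15 each way), the 5 largest bounds each way, the 3 brightest measured per family and those whose probes have opposite signs at least 0.5 apart. Kcne4, Kcnk1, Kcnmb4, Scn3a, Scn7a and the partners and markers named with values were chosen after their values were seen. Some genes within these rules are not reported here. Members, gene lists and motifs were chosen with earlier results of these data known. The alternatives were normexp correction with an offset of 50, quantile, median, above-background and loess (span 0.3) scaling, no filter or a stricter filter (signal of at least 50), the mean over probes, the deposited table, and 1.5-fold and 3-fold thresholds. On simulated arrays of 20082 measured genes, all 121 changed genes were called and 0 others. The planted changes all lay well past 2-fold, and the added noise was below the median scanner error of the channel genes. The simulation thus checked the code and does not bear on genes close to 2-fold. Tools were Python 3.11.15, numpy 2.4.6, pandas 2.3.3, statsmodels 0.14.6, matplotlib 3.10.9, R 4.3.3 and limma 3.58.1.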

Additional observations from a re-analysis of the deposited data

How the results depend on the processing

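No replicates exist, so the results describe 1 pair of arrays, and no paired analysis was possible because there is 1 array per group. Of the measured channel genes, 3 were at least 2-fold higher in C26 and 2 at least 2-fold lower. With normexp correction the counts were 1 (Kcnf1) and 1 (Kcng4), and with median scaling or the 75th percentile over probes above background 1 gene was higher. With no filter on dim probes they were 8 and 10 over all 143 genes, and with the stricter filter, which left 53, 2 genes were higher and 1 lower (Kcng4), since Kcnf1, the highest ratio, and Kcnh2 have a signal under 50 on 1 array. By construction, the 1.5-fold threshold gave 5 lower and the 3-fold threshold 1 higher and 0 lower. Quantile normalization, loess and the deposited table kept the same 5 genes past 2-fold. The median log2 ratio of the channel genes lay between -0.11 and -0.01. No gene past 2-fold reversed. Among all measured genes past 2-fold, 51.8% were higher, against 66.8% with normexp and 42.9% to 47.3% with the other scalings. The cause of the normexp difference was not tested. Low signal limits Kcnf1, Kcnh2, Kcnq1, Cacna1g and Kcnk5. Scn2b had at least 50 units on both arrays, but its ratio fell to 0.68 under normexp correction.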
